A study of Rattus norvegicus with 3 samples.

Results

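The genes described here are 10 rat genes that set up the adipocyte program or handle its lipids, namely the transcription factors Pparg, Cebpa, Cebpb and Cebpd and the lipid genes Fabp4, Lpl, Cd36, Plin1, Angptl4 and Lipe. Their probes were found through the RefSeq accession that the array design gives each probe. Of the 10 genes, 9 had a named probe (Plin1 had none), with 11 probes in all, and each of the 9 cleared background on 1 array or more. The array had 13301 named genes, of which 10010 cleared background on 1 array or more and were used for comparison. The 10 genes were selected on the intensities of the same 3 arrays that are reported here. Their levels and counts are therefore a description, and nothing is read from the fact that they differ.

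RNA was hybridized to 1 Agilent whole rat genome array for each of 3 cell types of F344 rats. COS1NR is an osteosarcoma line and MFH1NR is a line of malignant fibrous histiocytoma (MFH), both derived from tumors that 4-HAQO induced in F344 rats and both carrying a p53 mutation per the methods of the study. The mesenchymal stem cells (MSCs) came from the femur bone marrow of F344 rats and were isolated by their growth on plastic. They are called freshly isolated in the design and a monolayer culture in the methods, and they were kept in more serum than the sarcoma lines. No age or number of animals is given in the sources used here, and each sarcoma is a single line. With 1 array per cell type there were no replicates, so no difference could be tested and no p-value is given. The sarcomas were hybridized on a common slide and MSCs on a different one, so a difference from MSCs cannot be told apart from a difference between slides.

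PPARG is the nuclear receptor without which fat cells do not form. In the textbook order, C/EBP beta and C/EBP delta appear early after a hormonal stimulus and switch on PPARG and C/EBP alpha, which then hold each other active and turn on the genes of the mature fat cell. Among these genes are Fabp4 (a cytosolic fatty acid carrier), Lpl (the lipase that frees fatty acids from lipoproteins), Cd36 (a fatty acid receptor of the cell surface), Plin1 (the coat protein of the lipid droplet) and Lipe (the hormone-sensitive lipase). Angptl4 is secreted, inhibits Lpl and is a known target of PPAR receptors. Bone marrow MSCs can form fat cells, bone and cartilage in culture. Macrophages also express Pparg, Fabp4, Lpl and Cd36.

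Windows of the promoter around the annotated start were read from RefSeq on the GRCr8 assembly for 6 of the 10 genes, Pparg (2 windows), Cebpa, Cebpb, Cd36, Plin1 and Angptl4. Each window holds 300 bases, 250 before the start and 50 after it. Those of Pparg, Cd36 and Angptl4 are shown because these genes were higher in COS1NR and lower in MFH1NR than in MSCs. The Pparg windows lie at chr4:150096808-150097107 and chr4:150154522-150154821 and that of Cd36 at chr4:18246332-18246631, all on the plus strand, and that of Angptl4 lies at chr7:15258632-15258931 on the minus strand. They are written 5′ to 3′ in the direction of the gene, and capitals mark matches on either strand to the C/EBP motif TTNNGNAA or to the TATA motif TATAAA.
Pparg window 1: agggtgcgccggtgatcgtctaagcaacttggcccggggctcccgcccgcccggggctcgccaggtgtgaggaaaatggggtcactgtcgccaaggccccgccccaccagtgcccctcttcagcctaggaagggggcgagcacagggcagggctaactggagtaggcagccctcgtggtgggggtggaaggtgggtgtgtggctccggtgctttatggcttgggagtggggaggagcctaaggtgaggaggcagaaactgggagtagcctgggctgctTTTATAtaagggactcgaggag
Pparg window 2: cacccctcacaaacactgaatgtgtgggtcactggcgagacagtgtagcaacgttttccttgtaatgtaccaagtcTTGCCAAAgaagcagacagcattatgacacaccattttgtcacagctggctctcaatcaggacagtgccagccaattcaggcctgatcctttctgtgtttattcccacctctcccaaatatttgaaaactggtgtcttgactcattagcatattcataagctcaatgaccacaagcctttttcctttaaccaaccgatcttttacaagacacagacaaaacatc
Cd36: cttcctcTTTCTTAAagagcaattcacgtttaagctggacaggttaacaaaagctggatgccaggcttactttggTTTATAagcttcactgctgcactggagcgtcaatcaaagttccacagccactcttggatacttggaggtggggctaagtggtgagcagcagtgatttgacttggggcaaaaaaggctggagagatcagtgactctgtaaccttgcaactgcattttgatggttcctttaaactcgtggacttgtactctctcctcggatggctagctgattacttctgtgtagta
Angptl4: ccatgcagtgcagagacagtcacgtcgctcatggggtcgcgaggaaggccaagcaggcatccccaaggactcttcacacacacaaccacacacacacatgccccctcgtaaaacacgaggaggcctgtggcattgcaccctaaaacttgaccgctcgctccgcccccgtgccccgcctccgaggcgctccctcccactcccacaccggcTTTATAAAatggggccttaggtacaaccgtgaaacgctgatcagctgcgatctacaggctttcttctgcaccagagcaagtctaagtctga
Counted from base 1 at the 5′ end, the C/EBP motif was found on the minus strand at bases 77 to 84 of the second Pparg window and at bases 8 to 15 of the Cd36 window, and also at bases 174 to 181 of the Plin1 window. It matched 3 of the 7 windows, against 41.3% of all 33469 windows of the table. The TATA motif matched 5 of the 7 windows, against 14.2% of all, counted at any position of the window. In the first Pparg window it lay on the minus strand at bases 279 to 284, after the start. In the Cd36 window it lay on the minus strand at bases 76 to 81. In the Angptl4 window it matched both strands over the overlapping bases 210 to 217. In the Cebpa window it lay at bases 216 to 221 and in the Cebpb window at bases 218 to 223, both on the plus strand. CCAAT matched 2 of the 7 windows (37.5% of all). The C/EBP palindrome TTGCGCAA (0.170% of all), the nuclear receptor half-site AGGTCA (16.2%), the direct repeat of such half-sites with a spacer of 1 base (0.415%), the cyclic AMP element TGACGTCA (1.83%) and the STAT motif TTCNNNGAA (8.87%) were not matched in these windows. A match is a description of letters and not of binding.

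Intensities below are the processed signal of the array software, and each ratio was taken after every intensity was divided by the 75th percentile of its own array, which was 774 in COS1NR, 589 in MSCs and 994 in MFH1NR. The share of spots well above background was 56.6% in COS1NR, 59.7% in MSCs and 58.2% in MFH1NR, and 0 spots were saturated. Where the signal of a probe did not clear background on 1 of the arrays compared, a bound is given in place of a ratio, against the lowest intensity that was (29.4 in COS1NR, 17.9 in MSCs and 30.1 in MFH1NR) or the dim probe's own intensity if higher. The only spread at hand lies within arrays. Probes with at least 8 spots had a median SD over spots of 0.05 in COS1NR, 0.06 in MSCs and 0.05 in MFH1NR on the log2 scale. Over 1891 genes with at least 2 usable probes, the log2 ratios of the probes lay a median of 0.28 apart for COS1NR to MSCs, 0.31 apart for MFH1NR to MSCs and 0.15 apart for MFH1NR to COS1NR. The gap was above 0.91, 0.98 and 0.59, respectively, for 1 gene in 10. None of these covers cultures, RNA preparation or labeling.

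Pparg, the master regulator, was high in COS1NR, intermediate in MSCs and not well above background in MFH1NR. Its intensity was 1638 in COS1NR, 174 in MSCs and 13.6 in MFH1NR, with SDs over 10 spots of 0.03, 0.09 and 0.25 on the log2 scale. After scaling, Pparg was 7.15-fold higher in COS1NR than in MSCs (log2 ratio 2.84, with an error of 0.21 from the software's own model). The MFH1NR level lay at least 9.79-fold below MSCs and at least 70.0-fold below COS1NR (log2 ratios -3.29 and -6.13). These bounds depend on how the background is taken, and with the normexp model of background they shrank to -2.16 and -4.63. Pparg had a single probe, and the spread over its spots does not cover cultures, RNA preparation or labeling. The steps between the 3 arrays were therefore not tested. In a mixed culture, fewer cells that express a gene and less of its RNA per cell cannot be told apart here.

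The C/EBP factors followed the pattern of Pparg only in part. Cebpa, the partner of Pparg in the mature fat cell, had an intensity of 340 in COS1NR, 109 in MSCs and 282 in MFH1NR. It was 2.37-fold higher in COS1NR than in MSCs (log2 ratio 1.25) and 1.53-fold higher in MFH1NR (0.61), so it was well above background in the cells where Pparg was not. The log2 ratio of MFH1NR to COS1NR was -0.63 for Cebpa, close to the gap of 0.59 that 1 gene in 10 exceeded between its probes. Cebpb, an early factor that also serves inflammatory responses, had an intensity of 3162 in COS1NR, 3904 in MSCs and 1355 in MFH1NR. Its log2 ratio was -0.70 in COS1NR and -2.28 in MFH1NR relative to MSCs, and -1.58 between MFH1NR and COS1NR. Cebpd, the other early factor, had an intensity of 16338 in COS1NR, 13534 in MSCs and 7644 in MFH1NR. After scaling, Cebpd stood at 21.1 times the 75th percentile in COS1NR, 23.0 times in MSCs and 7.69 times in MFH1NR. The gap between COS1NR and MSCs (log2 ratio -0.12) was below the median gap between probes, while MFH1NR lay below MSCs by a log2 ratio of -1.58 and below COS1NR by -1.46. Thus both early factors were bright on all 3 arrays and lowest in MFH1NR.

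**Figure D1:**
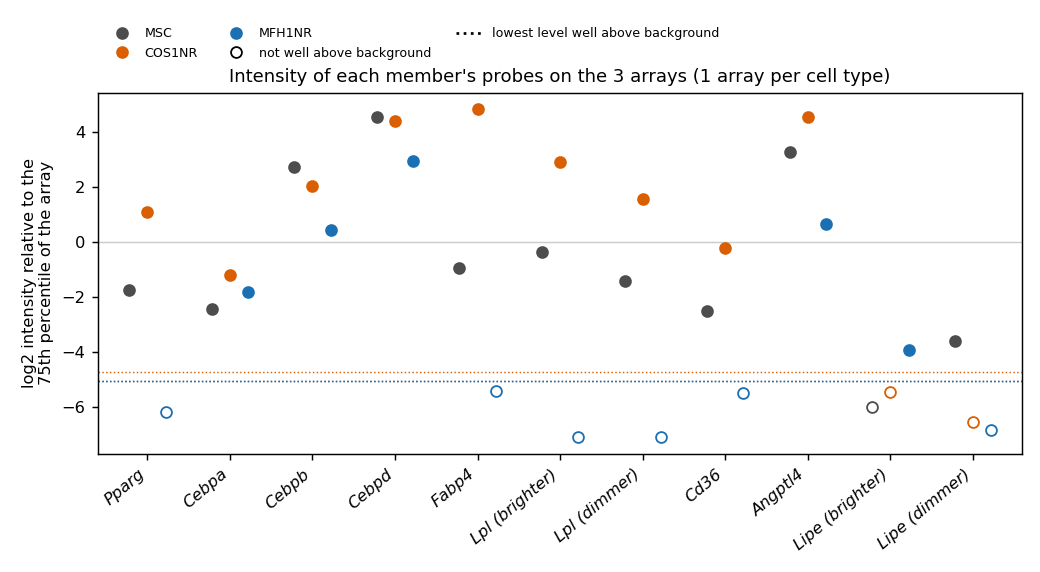
Intensity of each probe of the 9 genes with a named probe (x axis) on the arrays of MSCs, COS1NR and MFH1NR, as log2 of the intensity relative to the 75th percentile of the array (y axis). Each point is 1 array, open points were not well above background, and dotted lines mark the lowest level well above background on each array. Pparg, Fabp4, both Lpl probes and Cd36 have their highest point in COS1NR and an open point in MFH1NR, and the 3 C/EBP genes are filled on all arrays.

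Fabp4, the fatty acid carrier used as a marker of fat cells, was bright in COS1NR and did not clear background in MFH1NR. Its intensity was 21786 in COS1NR, 307 in MSCs and 23.5 in MFH1NR. It was 54.1-fold higher in COS1NR than in MSCs (log2 ratio 5.76), and 15 of the 9640 genes with a value were higher by more. The MFH1NR level lay at least 17.2-fold below MSCs and at least 931-fold below COS1NR (log2 ratios -4.11 and -9.86, or -2.83 and -8.20 with normexp). Fabp5, the closely related epidermal carrier, had an intensity of 190663 in COS1NR, 117075 in MSCs and 25305 in MFH1NR. Thus Fabp5 was bright on the array where Fabp4 was not well above background. Fabp3, the carrier of heart and muscle, was level between COS1NR and MSCs (log2 ratio 0.00) and stood at the 2-fold limit in MFH1NR against MSCs (log2 ratio -0.25 without scaling).

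Lpl, the lipase that feeds fatty acids to the cell, had 2 probes that showed the same order. The brighter probe had an intensity of 5714 in COS1NR, 456 in MSCs and 7.39 in MFH1NR, and the dimmer probe 2280, 222 and 7.27. Lpl was 9.53-fold higher in COS1NR than in MSCs by the brighter probe and 7.82-fold higher by the dimmer probe. In MFH1NR neither probe was well above background, and Lpl was at least 25.6-fold (brighter probe) and at least 12.5-fold (dimmer probe) lower than in MSCs. Against COS1NR the bounds were 244-fold and 97.4-fold. For the brighter probe these are log2 ratios of -4.68 to MSCs and -7.93 to COS1NR, or -3.42 and -6.50 with normexp. Cd36, the receptor that takes up long-chain fatty acids, had an intensity of 665 in COS1NR, 102 in MSCs and 22.2 in MFH1NR, with SDs over 10 spots of 0.07, 0.11 and 0.17. It was 4.94-fold higher in COS1NR than in MSCs, and its MFH1NR level lay at least 5.75-fold below MSCs and at least 28.4-fold below COS1NR (log2 ratios -2.52 and -4.83, or -1.60 and -3.35 with normexp).

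Angptl4, the secreted inhibitor of Lpl, was measured on all 3 arrays, so its ratios are not bounds. Its intensity was 18032 in COS1NR, 5710 in MSCs and 1553 in MFH1NR. It was 2.40-fold higher in COS1NR than in MSCs (log2 ratio 1.27), and its log2 ratio was -2.63 in MFH1NR relative to MSCs and -3.90 relative to COS1NR. Lipe, the hormone-sensitive lipase, gave no settled order. Its brighter probe was well above background only in MFH1NR (65.0, against 9.29 in MSCs and 17.5 in COS1NR), which puts MFH1NR at least 2.15-fold above MSCs. Its dimmer probe was well above background only in MSCs (48.9, against 8.32 in COS1NR and 8.85 in MFH1NR), which puts MFH1NR at least 2.75-fold and COS1NR at least 2.19-fold below MSCs. The probes of Lipe thus pointed in opposite directions and both lay near the background, so no direction is given for Lipe.

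A difference of at least 2-fold was counted as a call. A gene was compared where it cleared background on at least 1 array of the pair, and it counted as not called where its bound stayed under 2-fold or gave no ratio. Of the 8 genes with a value between COS1NR and MSCs, 6 were higher in COS1NR (Pparg, Cebpa, Fabp4, Lpl, Cd36 and Angptl4), 0 were lower and 2 lay within 2-fold (Cebpb and Cebpd). Of all 9710 genes compared, 20.7% were higher in COS1NR and 20.0% lower. Of the 9 genes with a value between MFH1NR and MSCs, 7 were lower in MFH1NR, 1 was higher (Lipe, by its brighter probe) and 1 lay within 2-fold (Cebpa), against 21.6% lower and 19.4% higher of all 9823 genes. Between MFH1NR and COS1NR, whose arrays shared a slide, 7 of 9 were lower in MFH1NR and 0 higher, against 15.1% lower and 12.4% higher of all 9422 genes. The median log2 ratio of the genes with a value was 1.78 for COS1NR to MSCs, -2.52 for MFH1NR to MSCs and -3.90 for MFH1NR to COS1NR, and over all genes compared it was 0.11, 0.02 and -0.09. The value of -2.52 is the bound of Cd36. Pparg, Fabp4, Lpl, Cd36 and Angptl4 were called higher in COS1NR and called lower in MFH1NR against MSCs, a pattern held by 125 of 9523 genes (1.31%). These counts follow from how the genes were selected and support nothing by themselves. The comparisons with MSCs share the MSC array, so they are given side by side.

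**Figure D2:**
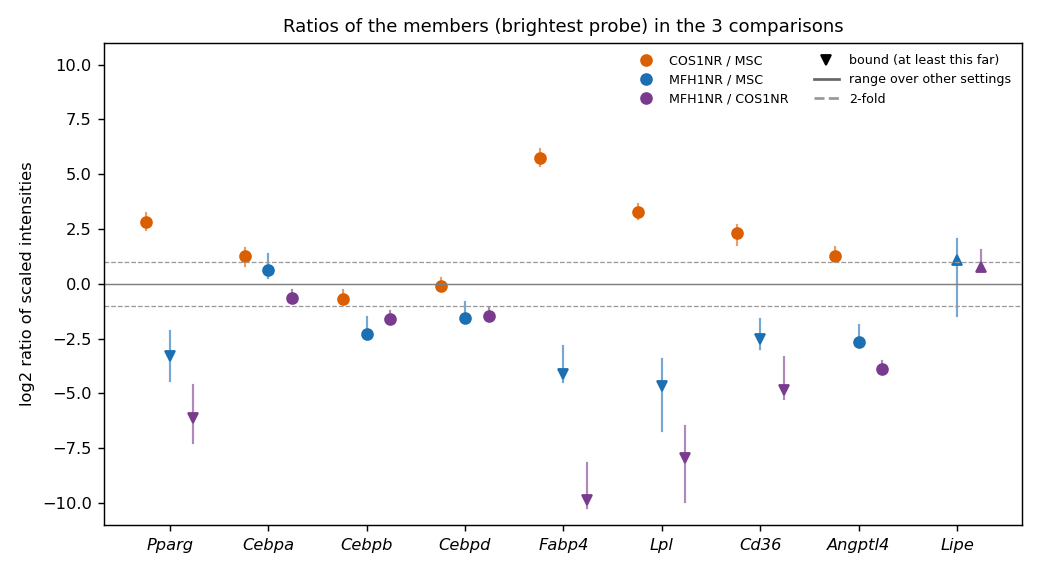
Log2 ratio of the brightest probe of each gene (y axis) for COS1NR to MSCs, MFH1NR to MSCs and MFH1NR to COS1NR. Circles are measured ratios, triangles are bounds that point away from 0, vertical lines span the values under the other processing settings, and dashed lines mark 2-fold. Fabp4 lies at 5.76 for COS1NR to MSCs and at a bound of -9.86 for MFH1NR to COS1NR, and the line of Lipe for MFH1NR to MSCs crosses 0.

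The other genes of the pathway were taken from 6 lists by role, with 122 genes beside the 10, of which 86 were used. Over all 6 lists, 31 of 84 genes were at least 2-fold higher and 18 lower in COS1NR than in MSCs (median log2 ratio 0.50). In MFH1NR, 12 of 81 were higher and 24 lower than in MSCs (-0.27), and 11 of 83 were higher and 30 lower than in COS1NR (-0.70). Without scaling, the balance between MFH1NR and MSCs turned, with 28 higher and 13 lower. Leaving out the scaling adds 0.39 to each measured log2 ratio of COS1NR to MSCs and 0.76 to each of MFH1NR to MSCs. A value therefore crosses a 2-fold limit or 0 only where it lies below that line by no more than this. Some genes counted here entered only through the array where they were high, and they say nothing of their list. They are Apoc1, Aqp7, Cidec, Ehhadh and Gpd1, 5 of the 31 higher in COS1NR than in MSCs and 5 of the 30 lower in MFH1NR than in COS1NR, and Ppargc1a, 1 of the 12 and of the 11 higher in MFH1NR.

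In the list of transcription regulators, 6 of 26 other genes lay above MSCs and 8 below in COS1NR (median 0.01), and 6 of 28 were higher and 8 lower in MFH1NR (0.12). Against COS1NR, 8 of 28 were higher and 4 lower in MFH1NR (-0.20). Klf15, a Kruppel-like factor that acts upstream of Pparg in fat cells, had an intensity of 2755 in COS1NR, 685 in MSCs and 126 in MFH1NR (log2 ratios to MSCs 1.61 and -3.20). Nr1h3, the liver X receptor alpha, had log2 ratios of 0.93 in COS1NR and -0.58 in MFH1NR. Nr3c1, the glucocorticoid receptor whose ligands are used to start fat cell formation in culture, was higher in both sarcomas (2.20 and 1.43). Ddit3, a C/EBP relative that blocks other C/EBP factors, had log2 ratios of 1.36 in COS1NR and 0.47 in MFH1NR, and Cebpg had 0.55 and 0.68. Klf5, an early activator of Pparg, was lower in both (-3.11 and -1.36), as was Ebf1 (-1.03 and -2.27), while Klf4 lay at -0.38 and -1.16. Without scaling, Ebf1 was within 2-fold in COS1NR (-0.63), and Klf5 (-0.60) and Klf4 (-0.40) were within 2-fold in MFH1NR. Ppard had log2 ratios of -0.80 and -1.18, the latter -0.43 without scaling. Ppara did not clear background in MSCs and had an intensity of 60.3 in COS1NR and 45.0 in MFH1NR. Gata2, which restrains Pparg in precursors, lay at 0.66 and 0.60. Dlk1, an inhibitor of fat cell formation, did not clear background in MSCs and had an intensity of 33.7 in COS1NR and 93.5 in MFH1NR. The coactivator Ppargc1a was well above background only in MFH1NR (119), at least 3.93-fold above MSCs (log2 ratio 0.60 with normexp, within 2-fold), and Cebpe was not well above background on any of the 3 arrays. Rxra, Srebf1 and Zfp423 had no named probe.

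In the list of the lipoprotein lipase system and fatty acid uptake, 5 of 16 other genes lay above MSCs and 4 below in COS1NR (median 0.00), and 3 of 15 were higher and 6 lower in MFH1NR (-0.67). Against COS1NR, 1 of 15 was higher and 6 lower in MFH1NR (-0.88). Apoc1, which entered only through COS1NR, is among the 5 and among the 6 lower than in COS1NR. Acsl1, which activates fatty acids with coenzyme A, had log2 ratios of 1.35 in COS1NR and 0.47 in MFH1NR. Its 4 probes gave values from 0.93 to 1.35 in COS1NR. The fatty acid transporter Slc27a1 lay within 2-fold of MSCs in both (-0.36 and -0.67), and so did the lipoprotein receptor Vldlr (-0.29 and -0.81). Fabp5 had log2 ratios of 0.31 in COS1NR and -2.97 in MFH1NR. The Lpl anchor Gpihbp1 and the Lpl cofactor Apoc2 were not well above background on any of the 3 arrays, and Lmf1 had no named probe.

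In the list of lipid droplet and lipolysis genes, 6 of 12 other genes lay above MSCs and 1 below in COS1NR (median 1.32). In MFH1NR, 1 of 10 was higher and 2 lower than in MSCs (-0.20), and 1 of 11 was higher and 7 lower than in COS1NR (-1.74). Aqp7 and Cidec, which entered only through COS1NR, are among both the 6 and the 7. The medians of 1.32 and -1.74 include them, and each lies nearer to 0 without them. Cidec, a protein that enlarges lipid droplets, was well above background only in COS1NR, with an intensity of 467 against 4.98 in MSCs and 6.90 in MFH1NR, and was at least 19.9-fold higher there than in MSCs. G0s2, an inhibitor of adipose triglyceride lipase, had an intensity of 24741 in COS1NR, 7539 in MSCs and 80.8 in MFH1NR, and its log2 ratio of MFH1NR to COS1NR was -8.62. Mgll, which cleaves the last fatty acid from the glycerol, had an intensity of 58.6 in MSCs and 360 in COS1NR and was not well above background in MFH1NR (11.5). Pnpla2, the adipose triglyceride lipase itself, lay within 2-fold of MSCs in both sarcomas (0.49 and -0.90), as did its coactivator Abhd5 (-0.30 and -0.16) and the lysosomal lipase Lipa (-0.26 and 0.27, the latter 1.03 without scaling). Plin5 was not well above background on any of the 3 arrays, and Plin2, Plin3 and Plin4 had no named probe.

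In the list of triglyceride synthesis, 9 of 12 genes lay at least 2-fold above MSCs and 1 below in COS1NR (median 1.30), against 20.7% and 20.0% of all genes compared. Among the 9, Gk (1.02), Agpat2 (1.18), Lpin3 (1.25), Lpin2 (1.34), Agpat3 (1.36) and Agpat1 (1.37) stayed below 3-fold. Agpat3 had 0.24 by its dimmer probe. The gene below was Mogat1 (-1.01). In MFH1NR, 1 of 11 was higher and 4 lower than in MSCs (-0.70), and 0 of 12 were higher and 8 lower than in COS1NR (-1.41). Dgat2, which adds the last fatty acid to make triglyceride, had an intensity of 11885 in COS1NR, 1167 in MSCs and 1342 in MFH1NR. Its log2 ratio of COS1NR to MSCs was 2.95, and its 3 probes gave values from 2.63 to 3.05. Gpam, the enzyme of the first step, was 3.85-fold higher in COS1NR and 2.30-fold higher in MFH1NR than in MSCs (log2 ratio 0.83 in MFH1NR with the normexp background correction). Dgat1 lay at 0.15 in COS1NR and -0.97 in MFH1NR, and Lpin1, a phosphatidate phosphatase, at -0.17 and -1.67. Gpd1, which supplies glycerol phosphate, was chosen after its values were seen. It was well above background only in COS1NR (463), at least 19.7-fold above MSCs.

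In the list of fatty acid oxidation genes under PPAR control, 8 of 12 genes lay within 2-fold between COS1NR and MSCs, with 3 higher and 1 lower (median 0.41). Among the 3 is Ehhadh, which cleared background only in COS1NR and entered through that array. In MFH1NR, 9 of 11 lay within 2-fold of MSCs, with 1 higher and 1 lower (-0.22). Cpt1a, which admits fatty acids to mitochondria, was the gene higher in MFH1NR (log2 ratio 2.51, against 0.76 in COS1NR). Cpt1b was the gene lower in both sarcomas (-1.92 in COS1NR and -1.14 in MFH1NR), but its dimmer probe gave 1.11 and -0.01. Ucp2 lay at -0.19 and -0.27, and Pdk4 was not well above background on any of the 3 arrays. Against COS1NR, 1 of 12 genes of this list was higher and 1 lower in MFH1NR (median -0.42).

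**Figure D3:**
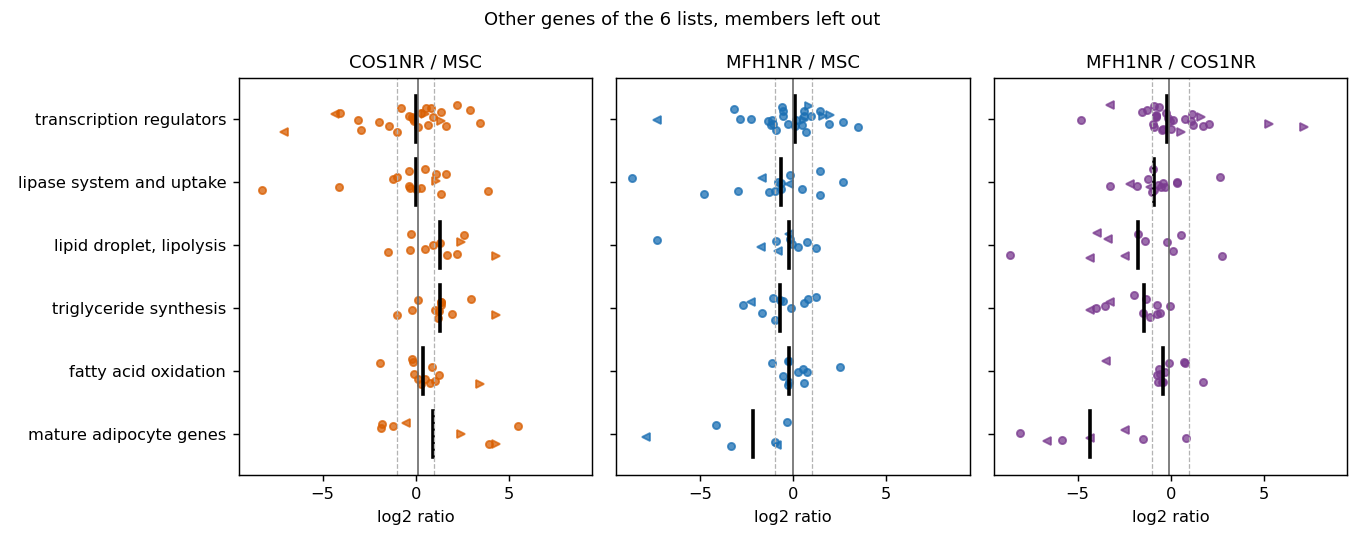
Log2 ratios (x axis) of the genes of the 6 lists other than the 10 genes described, for COS1NR to MSCs, MFH1NR to MSCs and MFH1NR to COS1NR. Each point is 1 gene by its brightest probe, triangles are bounds, thick bars are list medians with bounds included, the grey line is the median of all genes compared and dashed lines mark 2-fold. The medians of the lipid droplet and triglyceride lists lie at 1.32 and 1.30 for COS1NR to MSCs and at -1.74 and -1.41 for MFH1NR to COS1NR. These medians include Aqp7 and Cidec (lipid droplet) and Gpd1 (triglyceride), which cleared background only in COS1NR.

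The hormones and surface proteins of mature fat cells were divided. In their list, which shares Cidec, Aqp7, Plin1, Plin4 and Pck1 with the others, 4 of 8 genes lay at least 2-fold above MSCs and 3 below in COS1NR, and 0 of 7 were higher and 6 lower in MFH1NR than in COS1NR. Cidec and Aqp7 are among both the 4 and the 6. No median is given for this list because its middle values are bounds. Retn, the hormone resistin, had an intensity of 2446 in COS1NR, 41.5 in MSCs and 55.0 in MFH1NR, and its log2 ratio of COS1NR to MSCs was 5.49. Adipoq, which encodes adiponectin and is among the most specific products of fat cells, was dim in MSCs (32.6) and not well above background in COS1NR (13.2) or MFH1NR (6.22). Lep, the gene of leptin, was not well above background on any of the 3 arrays. Cfd, the gene of adipsin, was lower in COS1NR than in MSCs (log2 ratio -1.24, and -0.84 without scaling) and not well above background in MFH1NR. Slc2a4, the insulin-responsive glucose transporter, lay at -1.79 in COS1NR (-0.20, a bound, by its dimmer probe) and -0.95 in MFH1NR. Thus COS1NR, with the highest Pparg and Fabp4, had neither Adipoq nor Lep well above background. Rbp4, the retinol carrier that fat and liver secrete, is named because its pattern was near that of Pparg and Fabp4. Its intensity was 61505 in COS1NR, 3042 in MSCs and 285 in MFH1NR.

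Markers of other cell types were read on the same arrays. Of 17 macrophage markers, 17 cleared background on the MSC array, 8 on that of COS1NR and 7 on that of MFH1NR. All 17 were at least 2-fold lower in each sarcoma than in MSCs, against 20.0% (COS1NR) and 21.6% (MFH1NR) of all genes compared. The 9 that did not clear background in COS1NR did not clear it in MFH1NR either. They entered only through the MSC array, where they were high, and could not be called higher in a sarcoma. Their summed intensity was 13.1 times the 75th percentile in COS1NR, 194 in MSCs and 5.27 in MFH1NR. Lyz2, the lysozyme of macrophages, had an intensity of 32304 in MSCs and did not clear background in COS1NR or MFH1NR, and neither did Adgre1, Itgam, Ptprc and Spi1. Macrophages use Pparg, Lpl, Cd36 and Fabp4, and the part of these cells in the MSC values of these genes was not tested. In COS1NR, where these 4 genes were highest, 9 of the 17 markers did not clear background, while Cd68 (3135), Cd14 (3387) and Laptm5 (2605) were among the 8 that did.

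**Figure D4:**
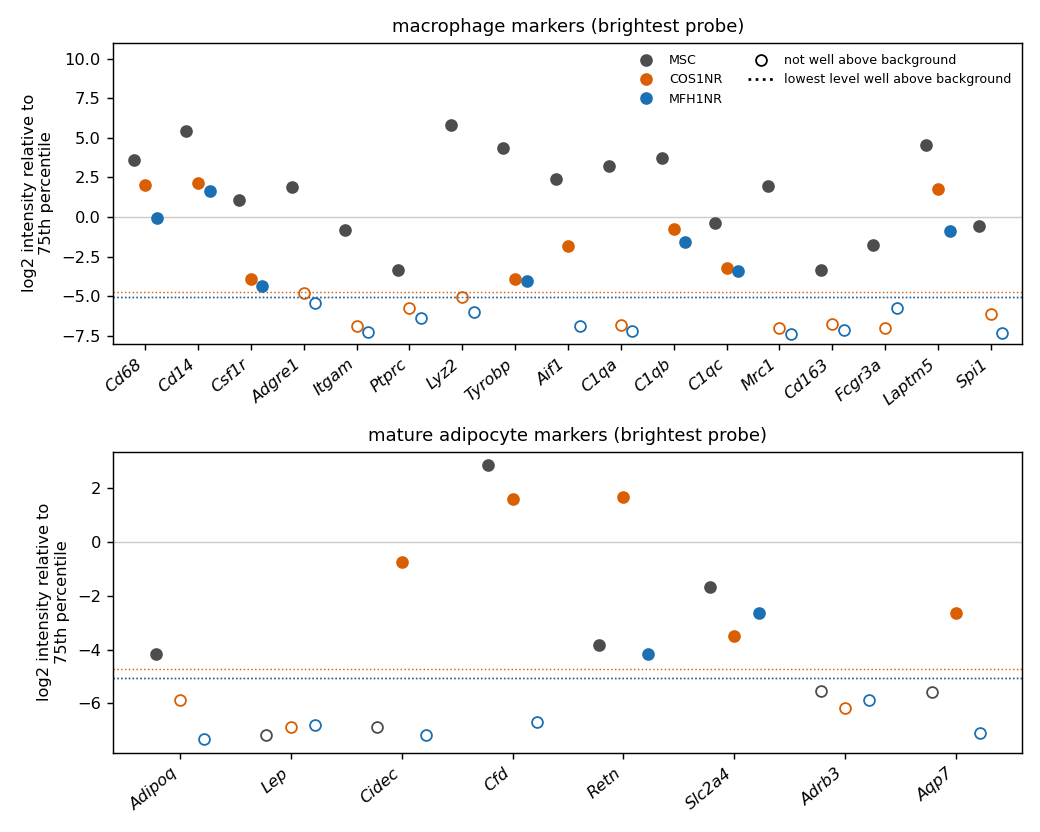
Levels of the macrophage markers (top) and of the mature fat cell markers (bottom) on the arrays of MSCs, COS1NR and MFH1NR, as log2 of the intensity relative to the 75th percentile of the array (y axis). Each point is the brightest probe of a gene on 1 array, open points were not well above background, and dotted lines mark the lowest level well above background. All 17 macrophage markers are filled in MSCs and have their highest point there, and Retn, Cidec and Aqp7 have their highest point in COS1NR.

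The fat cell markers fixed for the check of cell type gave a summed intensity of 7.12 times the 75th percentile in COS1NR, 7.71 in MSCs and 0.272 in MFH1NR, with 5, 4 and 2 of 8 well above background. The sum in MSCs was mostly Cfd (7.22), and that in COS1NR was Cfd (3.06) and Retn (3.16), so near-equal sums hide markers that went in opposite directions. Endothelial markers, which matter because capillary cells carry Cd36 and Fabp4, summed to 0.212 in COS1NR, 1.12 in MSCs and 0.138 in MFH1NR, and Pecam1 was not well above background on any of the 3 arrays. Stromal markers summed to 152 in COS1NR, 1073 in MSCs and 278 in MFH1NR, and muscle markers to 1.71, 142 and 1.18. Osteoblast markers summed to 30.8 in COS1NR, 75.6 in MSCs and 153 in MFH1NR, most of it from Spp1 (28.8, 61.4 and 150). For the label of COS1NR, 4 of the 5 osteoblast markers with a value were lower than in MSCs and 0 higher, against 20.0% and 20.7% of all genes compared. In MFH1NR 3 of 5 were higher than in COS1NR, against 12.4% of all. Among these 3, Sp7 cleared background only in MFH1NR and entered through that array, and Alpl was near the 2-fold limit (log2 ratio 1.05). Of the others, 1 (Bglap) lay within 2-fold and 1 was lower, namely the bone matrix gene Ibsp (log2 ratio -3.61). Spp1, Alpl, Ibsp and Bglap cleared background in COS1NR, while the bone regulator Sp7 did not, and Runx2 had no named probe.

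The genes whose pattern over the 3 arrays was nearest to that of Pparg, among 7932 genes well above background on all 3, were Ampd3, Naprt and Rbp4, at distances of 0.16, 0.71 and 0.82 on the log2 scale. Those nearest to Fabp4 were Rbp4, Ampd3 and C3, at 1.61, 2.50 and 2.53. Ampd3, an AMP deaminase, had an intensity of 3970 in COS1NR, 435 in MSCs and 38.3 in MFH1NR. C3, the central complement component, had 12240, 114 and 89.2. These distances rest on 3 arrays, and the MFH1NR values of Pparg and Fabp4 in them were not well above background.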

How the data were processed

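Single-channel Cy3 scans of 1 array each of COS1NR, MSCs and MFH1NR, read with Agilent Feature Extraction, were deposited by the authors. Per the file headers (version 10.5.1.1, while the labels name 9.1), the processed intensity of a spot is background-subtracted and detrended, and it is not scaled between arrays. The deposited series table held the same intensities. Control spots and outlier spots (187 to 217 per array) were left out. Intensities were divided by the 75th percentile of their array and put on the log2 scale, and spots of a probe were averaged. Of 40816 probes left, 16745 were named through RefSeq accessions with the gene table of GRCr8 (the array design names rn4, so no coordinates of probes are given). The probe with the highest mean over the arrays stood for its gene. With 1 array per cell type no test was made, and the number of arrays limits the precision. A call was a difference of at least 2-fold. The 10 genes, the lists and the rule for named genes (the 10 genes, regulators and lipid genes by role, and the 3 genes nearest to Pparg and Fabp4) were chosen with earlier results of these data known. Protein sequences were not used here. The calling step was tested on simulated data. Python 3.11.15, numpy 2.4.6, pandas 2.3.3, matplotlib 3.10.9, R 4.3.3 and limma 3.58.1 were used.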

Additional observations from a re-analysis of the deposited data

Results flagged for a closer look

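The log2 ratio to MSCs was at least 2-fold in opposite directions in the sarcomas for 5 of the 10 genes and 7 other named genes, against 1.31% of all 9523 genes for higher in COS1NR and lower in MFH1NR. Both the 10 genes and the nearest genes were picked on these arrays. In COS1NR and MFH1NR it was 2.84 and -3.29 for Pparg, 5.76 and -4.11 for Fabp4, 3.25 and -4.68 for Lpl, 2.30 and -2.52 for Cd36, and 1.27 and -2.63 for Angptl4. For G0s2 it was 1.32 and -7.30, for Klf15 1.61 and -3.20, and for Mgll 2.22 and -1.72 (-0.96 in MFH1NR without scaling, within 2-fold). For the genes nearest to Pparg and Fabp4 it was 2.80 and -4.26 (Ampd3), 2.36 and -3.91 (Naprt), 3.94 and -4.17 (Rbp4), and 6.36 and -1.11 (C3, which fell short of 2-fold in MFH1NR at -0.35 without scaling, -0.94 with median scaling and -0.89 with normexp). Of 79 other list genes with both comparisons, 6 had this pattern, G0s2, Klf15, Mgll, Rbp4, Agpat3 (1.36 and -2.67, with 0.24 in COS1NR by its dimmer probe) and Gk (1.02 and -2.25), and 2 had the reverse. The MFH1NR values of Pparg, Fabp4, Lpl, Cd36, Mgll and Gk are bounds. With 1 array per cell type the difference between the sarcomas was not tested.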

How the results depend on the processing

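No paired analysis was possible because each cell type had 1 array, and none could be left out. The 11 other settings were no scaling, scaling by the median, quantile normalization, the series table, a floor at the background limit, no filter on dim probes, only genes above background on all arrays, the mean or the second brightest probe of a gene, and 3-fold and 1.5-fold thresholds. A normexp correction on the mean signal had been intended and was not run, since the files used give the median, and normexp on the median signal with an offset of 50 was added after seeing the data. Of 243 values of the 10 genes under these settings, 233 kept their direction and side of 2-fold, as did 1017 of 1089 values of the other named genes. Many of these values could not change. The series table held the same intensities, probe settings leave a gene with 1 probe as it was, and the floor and filter settings act on dim probes. The share that was kept is therefore no measure of stability. The log2 ratio of Lipe in MFH1NR to MSCs turned to -1.21 (normexp), -0.59 (mean of probes) and -1.46 (second probe). With normexp the probes of Lipe changed rank, so all of these settings bring in the probe that was dimmer before. The count of the 10 genes higher in COS1NR than in MSCs fell from 6 to 2 with only genes above background on all arrays, where fewer genes are compared, and the count lower rose from 0 to 1 with the second probe or 1.5-fold. In MFH1NR to MSCs, the count higher went from 1 to 2 (no scaling, 1.5-fold) or 0 (normexp, floor, above background on all arrays, mean or second probe, 3-fold), and the count lower from 7 to 3 (above background on all arrays). In MFH1NR to COS1NR, the count higher went from 0 to 1 (no scaling, no filter, 1.5-fold) and lower from 7 to 3 (above background on all arrays). Of the other list genes, COS1NR to MSCs gave 17 higher and 11 lower at 3-fold. MFH1NR to MSCs gave 28 higher and 13 lower without scaling, and 7 higher at 3-fold and 22 at 1.5-fold. MFH1NR to COS1NR gave 7 higher and 19 lower above background on all arrays, and 46 lower at 1.5-fold. Without scaling, the median of all genes moved to 0.52, 0.79 and 0.27 in the 3 comparisons, and Cebpd turned to 0.27 in COS1NR to MSCs. In MFH1NR to MSCs without scaling, Cebpd was -0.82 and Cebpa 1.37. Cebpa in COS1NR to MSCs was 0.82 with normexp. Values near the background limit are bounds.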

Other observations

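Some list genes outside the rule for named genes also differed widely between the arrays, and they are given here as values, chosen after they were seen. Stat5a, a transcription factor of cytokine and growth hormone signaling, had an intensity of 25.9 in COS1NR, 3000 in MSCs and 5374 in MFH1NR. Stat5b, its close relative, had 11.8, 450 and 1485. Neither was well above background in COS1NR, the array with the highest Pparg. Stat5a was at least 134-fold and Stat5b at least 20.1-fold lower there than in MSCs.

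Cidea, a lipid droplet protein best known from brown fat, had an intensity of 58.8 in COS1NR, 127 in MSCs and 504 in MFH1NR, the reverse order to Cidec in the sarcomas. Scarb1, a lipoprotein receptor, had 509, 885 and 4050 by its brighter probe (log2 ratio of MFH1NR to MSCs 1.44), but its dimmer probe gave -0.18 for that ratio. Ppargc1b, a coactivator of nuclear receptors, was higher than in MSCs in both sarcomas (log2 ratios 2.92 and 2.65). Apoe, a lipoprotein of macrophages and stroma, was lower in both (-8.26 and -8.67). The insulin-regulated phosphodiesterase Pde3b had an intensity of 243 in COS1NR, 30.8 in MSCs and 7.32 in MFH1NR, where it was not well above background.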
